A study of Mus musculus with 2 samples.

Results

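Isolated ES-only CTCF peaks are positions that were called in mouse embryonic stem (ES) cells and had no peak called nearby in mouse embryonic fibroblasts (MEFs). They were taken from the autosomal ES peaks with a score below 400, and a peak was kept when its start lay more than 10 kb from the start of every MEF peak on the same chromosome. This gave 16673 peaks out of 43523 ES autosomal peaks, which is 38.3% of them (95% Wilson interval 37.9 to 38.8). The full ES list holds 44424 peaks and the MEF list 53736. The percentage follows from the rule and is given as a description.

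The study profiled CTCF by chromatin immunoprecipitation and sequencing in 2 cell types, with 1 library each. ES cells are pluripotent cells of the early embryo, and here they have the labelled backgrounds Bl3.10 and C57BL. MEFs are connective-tissue cells of later embryos, and here they have the background C57BL6. Both were grown in DMEM with 10% fetal calf serum, and both were precipitated with the same Millipore antibody. The labels name no treatment and no transgene, and give no sex, passage or embryonic stage. Cell type, background and library therefore cannot be told apart. No test between cell types was possible, and the intervals below cover counting error only and treat peaks as independent. The number of reads behind each list is unknown. A peak called in ES cells only means that the MEF list has no call there, and weaker binding in MEFs was not measured.

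CTCF is a zinc-finger protein that binds a long DNA motif and acts at insulators. Together with the cohesin ring it holds the anchors of chromatin loops and the borders of contact domains. Many of its sites are occupied in most tissues, while others are bound in particular cell types, and methylation of the motif is known to keep CTCF away from part of them.

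The rule cut through a continuous range of distances. The isolated peaks nearest to the distance limit were 10003 bp from a MEF start (chromosome 13, 9756002 to 9756400) and 10004 bp from one (chromosome 8, 124332003 to 124332401). The nearest excluded peaks were at 10000 bp (chromosome 9, 36911861 to 36912259) and 9998 bp (chromosome 7, 144659832 to 144660230). The median isolated peak was 25.2 kb from its nearest MEF start (quartiles 15.7 and 44.5 kb). Of the 32110 ES autosomal peaks that overlapped no MEF peak, the isolated peaks made up 51.9% (51.4 to 52.5), and 15436 had a MEF peak within 10 kb that did not overlap them. Under the same distance and score rule applied in reverse, 24540 of 52220 MEF autosomal peaks (47.0%, 46.6 to 47.4) were isolated from ES peaks. These percentages also depend on the length of the list measured against, so their difference was not read further.

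Isolated peaks were the sparse part of the ES list. The stretches of the autosomes that lie more than 10 kb from any MEF start add up to 1675.4 Mb, or 69.5% of the length between the first and the last peak of the chromosomes. They held 38.3% of the ES peaks, at 9.95 peaks per Mb (95% Poisson interval 9.80 to 10.1). The remaining length, within 10 kb of a MEF start, held 36.5 ES peaks per Mb (36.1 to 36.9). Sequence gaps in the genome assembly are counted as length. They hold no peaks, so apart from their edges they add to the stretches more than 10 kb from a MEF start. This lowers the 9.95 per Mb more than the 36.5, by an amount that was not measured.

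ES peaks thinned out steadily with distance, and nothing set the 10 kb limit apart. There were 280 ES peaks per Mb within 0.4 kb of a MEF start and 40.04 per Mb between 0.4 and 1 kb. The density was 17.7 per Mb (17.3 to 18.2) between 5 and 10 kb, just outside the rule, and 14.6 per Mb (14.2 to 14.9) between 10 and 20 kb, just inside it. Within the isolated peaks it fell further to 9.79 per Mb between 30 and 50 kb, to 7.17 per Mb between 50 and 100 kb, and to 4.07 per Mb (3.83 to 4.33) beyond 100 kb. The farthest class still held 1060 ES peaks. Its length includes assembly gaps, which can hold no peak, so its density is a lower limit for the assembled sequence.

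**Figure D1:**
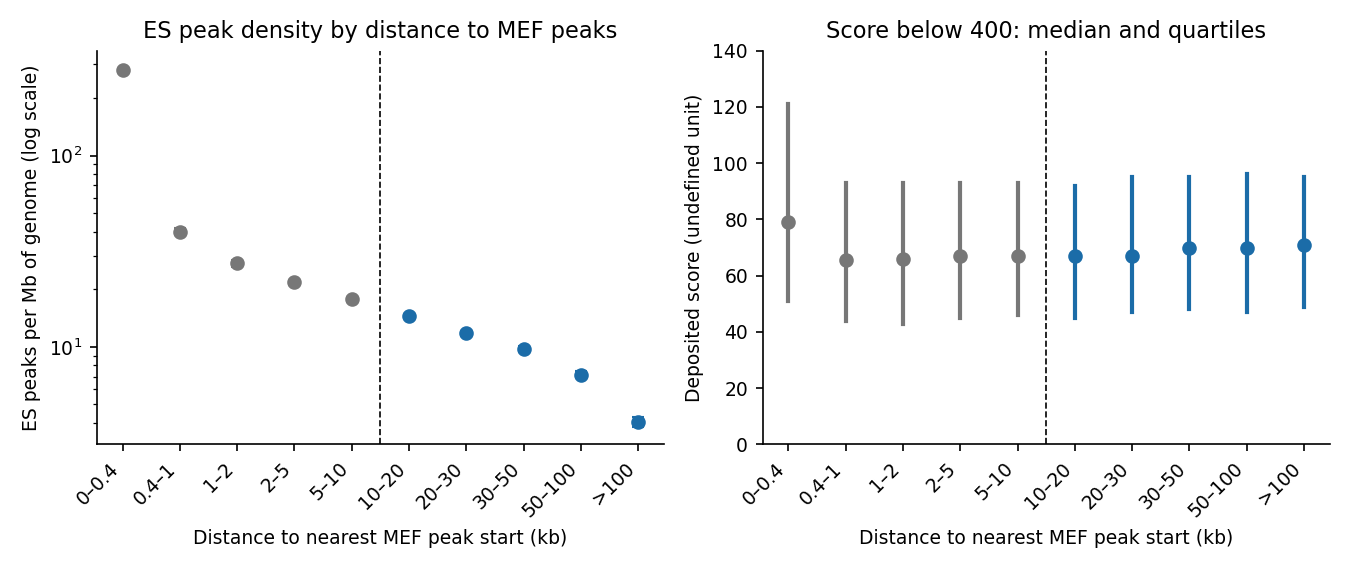
Left, ES autosomal peaks per Mb of genome (log scale) by class of distance to the nearest MEF peak start in kb, with 95% Poisson intervals; right, median (point) and quartiles (line) of the deposited score of ES peaks below 400 in the same classes. The dashed line is the 10 kb limit, with isolated peaks in blue. Density falls from 280 to 4.07 per Mb, while the median score beyond 0.4 kb stays between 65.5 and 71.

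The score of isolated peaks did not follow this fall in density. The deposited score has no stated definition, so it served only to rank peaks within the ES list. Isolated peaks had a median score of 68 (95% interval of the median 67 to 69, quartiles 47 and 94). Other ES autosomal peaks below the same limit of 400 had a median of 71 (71 to 72, quartiles 47 and 103). That gap came with the peaks overlapping a MEF peak, whose median was 80 (79 to 81). Peaks with a MEF peak within 10 kb but none overlapping had a median of 67 (66 to 67), next to that of the isolated peaks. Among isolated peaks the median was 67 between 10 and 20 kb from a MEF start and 71 beyond 100 kb. The calls beyond 100 kb were thus not the lowest-ranked of the list.

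Isolated peaks were scarce at the top of the ES ranking. In 10 groups of equal size by score, they made up 24.5% (23.3 to 25.8) of the highest group, which starts at a score of 139. In the next group the share was 36.3% (34.9 to 37.7). In the other 8 groups it ran between 37.2% and 42.2%, with 37.2% (35.7 to 38.6) in the lowest. The highest group had 50.03% of its peaks overlapping a MEF peak, and the limit of 400 removed only 1 peak from the isolated class there. That peak (chromosome 7, 38391482 to 38391880) scored 416 and had a MEF start 10.8 kb away.

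**Figure D2:**
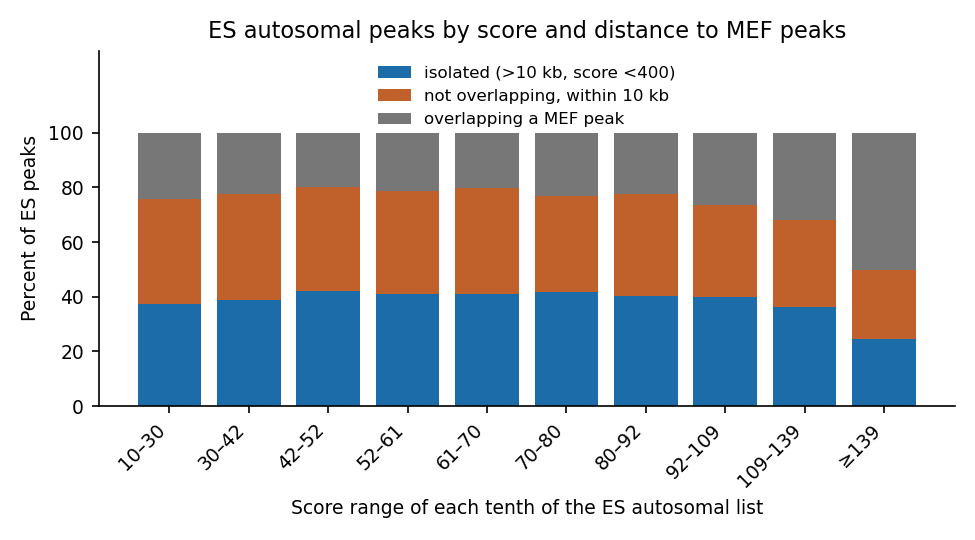
Stacked bars give the percentage of ES autosomal peaks that are isolated, that lie within 10 kb of a MEF start without overlapping, or that overlap a MEF peak, for 10 groups of equal size by score from lowest (left) to highest (right). The isolated share is 37.2% to 42.2% in the lower 8 groups and 24.5% in the highest.

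The 5 highest-scoring isolated peaks stood on 4 chromosomes. The first (chromosome 5, 130541413 to 130541811) scored 397 and had its nearest MEF start 10.5 kb away, so it is close to both limits of the rule. Chromosome 16 carried the next peaks, at 90186468 to 90186866 (score 389, 11.4 kb from a MEF start) and at 94840140 to 94840538 (score 387, 45.7 kb). They were followed by chromosome 17 at 74231523 to 74231921 (score 382, 47.4 kb) and chromosome 15 at 12027119 to 12027517 (score 374, 34.6 kb). Of these 5, the last 3 named lay well away from any MEF call.

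The 3 most remote isolated peaks had scores on both sides of the median. The farthest (chromosome 7, 9086344 to 9086742) was 1700.8 kb from the nearest MEF start and scored 136. A second one on chromosome 7, at 21573645 to 21574043, lay 1031.9 kb from a MEF start and scored 73. On chromosome 12, the peak at 22510640 to 22511038 lay 891 kb away and scored 28. Repeats and assembly gaps around these positions were not examined.

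Between MEF peaks, isolated ES peaks were spread over many gaps instead of filling a few. The autosomes have 27294 gaps of more than 20 kb between neighbouring MEF starts, the only gaps that can hold an isolated peak. Of these, 10012 (36.7%, 36.1 to 37.3) held at least 1. A single isolated peak stood in 6086 gaps, a pair in 2348, and 5 or more in 274, with 12 as the highest number. Occupied gaps became more frequent with length, from 8.39% (7.69 to 9.14) of gaps of 20 to 30 kb to 45.3% (44.2 to 46.4) of those of 50 to 100 kb and 89.9% (84.6 to 93.5) of those over 500 kb. Per length the order was the opposite. The part of a gap more than 10 kb from both ends held 19.6 isolated peaks per Mb (18.0 to 21.4) in gaps of 20 to 30 kb, 14.03 in gaps of 50 to 100 kb, 5.80 in gaps of 200 to 500 kb and 3.23 (2.94 to 3.53) in gaps over 500 kb. By this count, short openings in the MEF map were the richest in isolated ES peaks for their size, and the long MEF-free regions the poorest. Assembly gaps were not taken out of the length. They can hold no peak of either list, so they lower the density of the long regions most.

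Isolated peaks also had fewer ES peaks of any kind around them than the other ES peaks. The nearest ES start was at a median of 18.9 kb (quartiles 7.92 and 44.3 kb), against 6.20 kb (1.87 and 17.2 kb) for the other ES peaks below the score limit. Another ES peak within 1 kb was found for 4.91% (4.59 to 5.25) of isolated peaks and for 16.2% (15.8 to 16.7) of the others. Overlapping ES neighbours were found for 1.55% and 5.96%. Within 50 kb most peaks of both kinds had another ES peak, 78.0% of the isolated peaks and 92.8% of the others. Spacing within the ES list is not part of the rule, but ES and MEF peaks are dense in the same regions. A limit on MEF distance therefore also selects places with fewer ES peaks.

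Most isolated peaks nevertheless had another isolated peak in the neighbourhood. Within 50 kb this held for 9958 of them, or 59.7% (58.98 to 60.5). For all ES autosomal peaks the share with another ES peak within 50 kb was 87.1% (86.8 to 87.4). Over 25 kb the shares were 42.7% and 73.5%, and over 100 kb 78.9% and 94.9%. The median distance between neighbouring isolated starts was 79.9 kb (quartiles 25.1 and 187 kb), against 22.0 kb (6.83 and 58.7 kb) in the whole ES autosomal list. A subset is bound to be sparser than its list, so the neighbours were also described by their kind.

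ES neighbours of an isolated peak were more often isolated themselves, and less so when peaks were grouped by the number of MEF peaks around them. Below 20 kb the rule ties neighbours to each other, because the same stretch of sequence must be free of MEF peaks. Between 20 and 50 kb, 35.3% of the 25459 ES neighbours of isolated peaks were isolated, and 26.7% of the 61647 ES neighbours of other peaks. The difference shrank with distance, to 35.0% against 30.2% between 200 and 500 kb, and 35.6% against 31.5% between 500 and 1000 kb. Peaks were then grouped by the number of MEF peaks within 500 kb. At 20 to 50 kb the shares were 40.5% and 39.4% around peaks with 20 to 29 MEF peaks, and 55.8% and 54.8% with 10 to 19. They stood further apart in the fullest surroundings, with 26.8% against 22.6% at 30 or more MEF peaks. That class has no upper limit and holds 23028 of the 43523 ES peaks. MEF numbers within it were not matched, so its difference is not one at like MEF density. At fewer than 10 MEF peaks they were 77.5% and 70.7%, but the latter rests on only 222 neighbours, so that difference is loosely measured. The same peaks enter many pairs, so no interval is given for these shares.

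**Figure D3:**
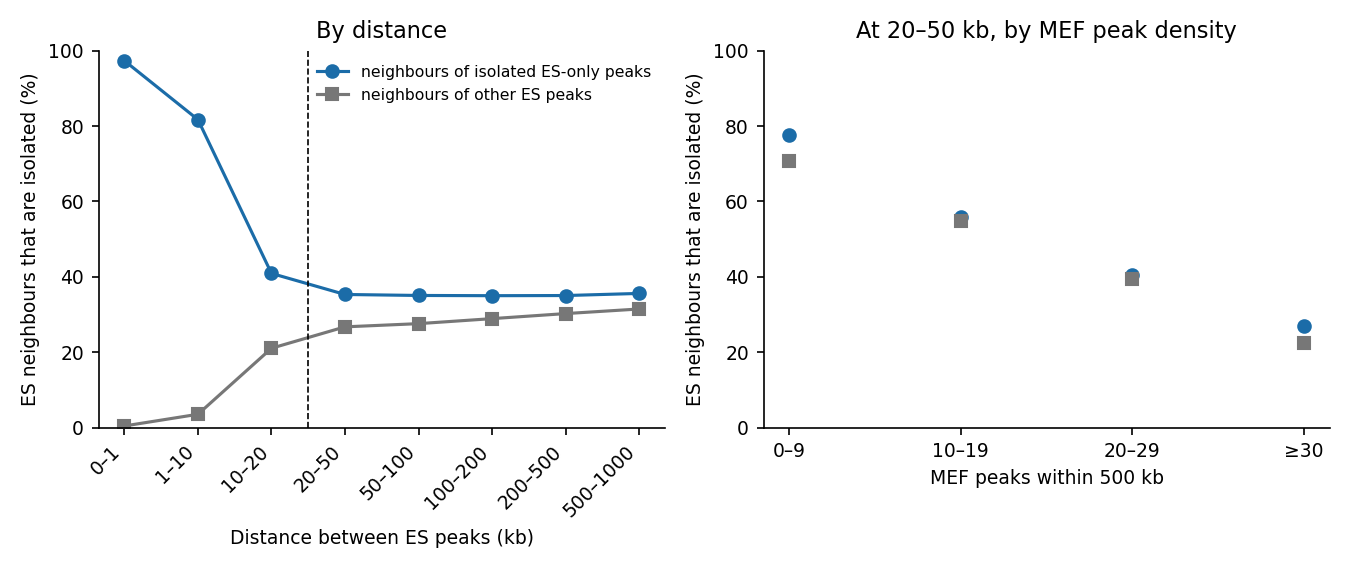
Percentage of ES neighbours that are isolated ES-only peaks, for neighbours of isolated peaks (circles) and of other ES autosomal peaks (squares): left, by class of distance between the ES peaks in kb, with the dashed line at 20 kb; right, for pairs 20 to 50 kb apart, by the number of MEF peaks within 500 kb. On the right circles and squares nearly coincide in the middle classes (55.8% and 54.8%, 40.5% and 39.4%) and stand apart in the outer ones (77.5% and 70.7%, 26.8% and 22.6%). The 70.7% rests on only 222 neighbours, and the class of 30 or more MEF peaks has no upper limit.

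The isolated share of ES peaks itself went with the surrounding number of MEF peaks. It was 79.8% (78.1 to 81.4) for ES peaks with fewer than 10 MEF peaks within 500 kb, 58.1% with 10 to 19, 41.5% with 20 to 29, and 26.6% (26.0 to 27.2) with 30 or more. The rule produces such an order by its construction. The median score of isolated peaks was 73, 71, 68 and 65 in the same classes, and that of the other ES peaks below the score limit was 72, 74, 73 and 70. In the emptiest surroundings the isolated peaks thus ranked as high as the others, and in the remaining 3 classes their median was the lower.

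Every autosome carried isolated peaks, and their share of the ES peaks differed between chromosomes. The intervals treat neighbouring peaks as independent and are too narrow to test that difference. The share of ES peaks that were isolated averaged 38.8% ± 4.28 (SD over 19 chromosomes). It was highest on chromosome 12, with 753 of 1707 peaks (44.1%, 41.8 to 46.5), and on chromosome 16, with 656 of 1489 (44.1%, 41.6 to 46.6). Chromosomes 13, 18, 3, 14 and 1 followed at 42.2% to 43.6%, and the intervals of all 7 overlap. The lowest share was on chromosome 11, with 1027 of 3406 peaks (30.2%, 28.6 to 31.7), followed by chromosome 19 (32.3%, 29.8 to 35.0) and chromosome 7 (33.9%, 32.2 to 35.6). The intervals of chromosomes 11 and 19 overlap each other. The share depends on MEF peak density by the rule. Chromosomes 11 and 19 had the most MEF peaks per Mb (31.5 and 27.3), while chromosome 7 had 21.6 and chromosome 12 had 18.1. By number, chromosome 2 carried most isolated peaks (1300), followed by chromosome 5 (1246) and chromosome 1 (1204).

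The order changed when the peaks were set against the length open to them. Chromosome 11 has the lowest percentage of its length more than 10 kb from a MEF start (59.9%), yet this length held 14.4 isolated peaks per Mb, more than on any other autosome. Chromosomes 9 and 5 followed with 12.1 per Mb each. Chromosome 14, among the highest by share of ES peaks, was lowest here with 7.88 per Mb, next to chromosome 3 with 8.08. The mean was 10.1 ± 1.57 per Mb (SD over 19 chromosomes). The other ES peaks, per Mb within 10 kb of a MEF start, were also densest on chromosome 11 (49.9). Their density was 28.7 on chromosome 14 and lowest on chromosome 3 (27.9). Chromosome 7 came next to chromosome 11 (43.9), but had 9.25 isolated peaks per Mb. The high density on chromosome 11 was thus not particular to its isolated peaks. Isolated peaks with another within 50 kb made up 67.8% on chromosome 5 and 67.3% on chromosome 17, at the upper end, and 51.6% on chromosome 14 at the lower end. This percentage depends on how dense the isolated peaks are. Over the whole length there were 8.34 per Mb on chromosome 5, 7.40 on chromosome 17 and 5.75, the lowest, on chromosome 14. The median score was between 66 and 73 on all 19 autosomes.

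**Figure D4:**
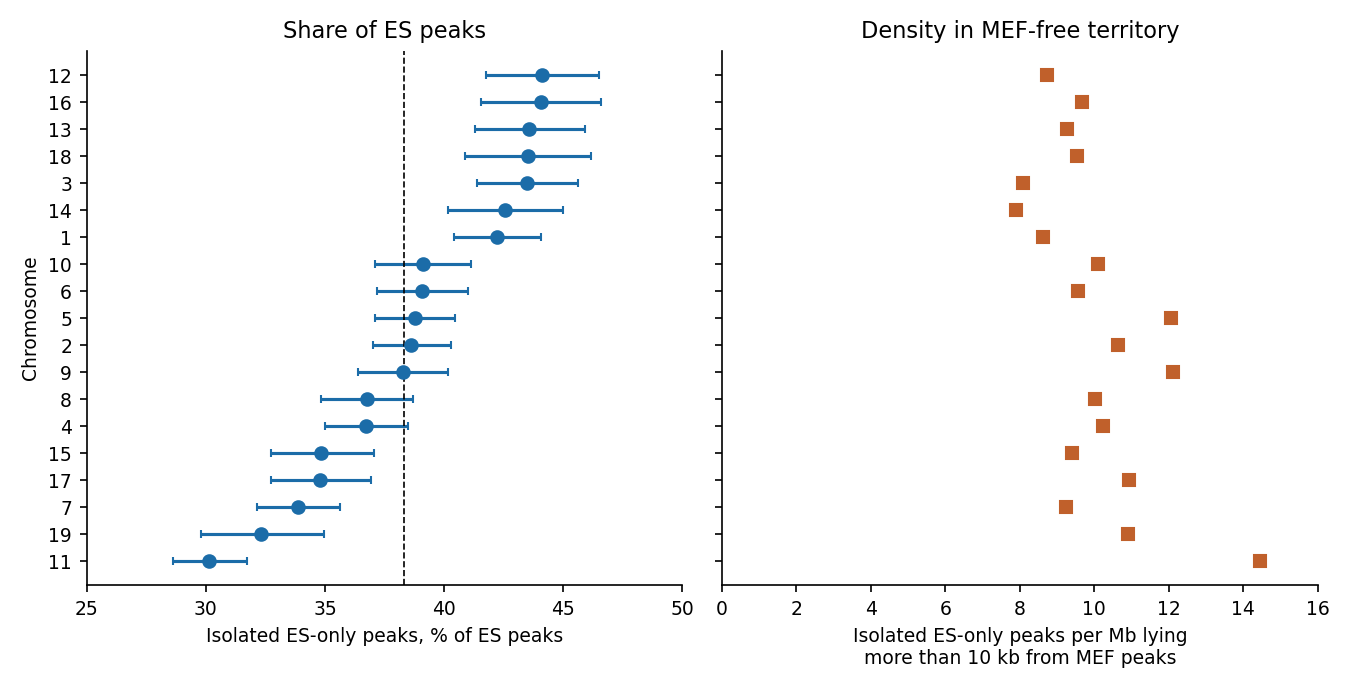
Left, isolated ES-only peaks as a percentage of the ES peaks of each autosome, with 95% Wilson intervals and the value for all autosomes (38.3%) as a dashed line; right, isolated peaks per Mb of sequence more than 10 kb from any MEF start. Chromosome 11 is lowest on the left (30.2%) and highest on the right (14.4 per Mb).

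Along the chromosomes, isolated peaks were more evenly spread than the ES list as a whole. Of the 2391 windows of 1 Mb with an ES autosomal peak, 24 had no isolated peak, 1774 had 1 to 9, 571 had 10 to 19 and 22 had 20 or more. The median window held 6 (quartiles 4 and 9), against 14 ES peaks in all (quartiles 7 and 25). The 239 windows with most isolated peaks held 22.5% of them (21.9 to 23.1), whereas the 239 windows with most ES peaks held 28.4% of all ES autosomal peaks (28.0 to 28.9). Those ES-rich windows held 18.1% of the isolated peaks (17.5 to 18.7). ES and MEF peaks are dense in the same windows, and the rule leaves out ES peaks near MEF peaks. A flatter spread therefore follows in part from the rule and is given as a description.

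The number of isolated peaks per window levelled off as windows filled up. It was 2.28 on average in windows with 1 to 4 ES peaks, 6.18 with 10 to 14, 10.9 with 30 to 39, 12.9 with 40 to 59, and 11.4 in the 49 windows with 60 or more. Their share of the ES peaks fell over the same classes from 77.4% (74.8 to 79.9) to 16.7% (15.4 to 18.0). The mean number of MEF peaks per window rose from 7.54 to 64.6. Fuller windows thus leave less length open to the rule, so the levelling also follows in part from it. MEF peaks isolated from ES peaks levelled off too, with 6.79 per window in the sparsest class, 12.3 in windows with 20 to 29 ES peaks and 10.7 in the fullest. Of the 2391 windows with an ES autosomal peak, 2355 held isolated calls of both cell types and 12 held isolated ES peaks only. With several isolated calls of each cell type in most windows, sharing a window of 1 Mb says little about co-location.

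The windows with most isolated peaks were found on chromosomes 18, 17 and 11. Chromosome 18 from 37000001 to 38000000 held 29 isolated peaks among 53 ES peaks, with 23 MEF peaks of which 3 were isolated from ES peaks. On chromosome 17, the window from 29000001 to 30000000 held 28 among 75 ES peaks, with 50 MEF peaks. On chromosome 11, the window from 107000001 to 108000000 held 26 among 56 ES peaks, with 31 MEF peaks. The window on chromosome 1 from 182000001 to 183000000 also held 26, among 58. The chromosome 17 window had 37.3% isolated peaks (27.3 to 48.7), against 16.7% over all windows with 60 or more ES peaks. Its 28 isolated peaks stand against a mean of 11.4 in those windows. Those windows averaged 64.6 MEF peaks, more than the 50 here, and fewer MEF peaks leave more length open to the rule. In the chromosome 18 window the share was 54.7% (41.5 to 67.3). They are the extremes of 2391 windows, so these intervals are too narrow for a comparison with the rest.

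By share of ES peaks, other windows came first. Among the 877 windows with at least 20 ES peaks, the highest share was on chromosome 14 from 99000001 to 100000000, where 18 of 22 ES peaks were isolated (81.8%, 61.5 to 92.7) beside 18 MEF peaks. On chromosome 3 from 35000001 to 36000000, 16 of 20 ES peaks were isolated (80%, 58.4 to 91.9), with only 8 MEF peaks. On chromosome 17 from 74000001 to 75000000, 17 of 22 were (77.3%, 56.6 to 89.9), with 17 MEF peaks. The chromosome 14 window carried 15 MEF peaks isolated from ES peaks, so each cell type had its own set of calls there. In the chromosome 3 window 4 of the MEF peaks were isolated.

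Joining isolated peaks whose starts lie at most 50 kb apart gave 3664 chains of 2 or more and left 6715 single peaks (40.3% of all, 39.5 to 41.0). Pairs made up 2242 of the chains and held 26.9% of the isolated peaks. Chains of 5 or more numbered 294 and held 1762 peaks (10.6%, 10.1 to 11.0), with a median span of 85.8 kb. Only 13 chains had 10 or more. Peaks that overlap each other count as separate members, here and in the runs below. Neither chains nor runs were rebuilt with overlapping peaks merged. The median score was 69 (68 to 70) for single peaks, 66 (64 to 68) in chains of 5 to 9 and 63 (55 to 69) in chains of 10 or more, so the large chains did not collect high scores. A MEF start lay inside 14.01% of pairs and inside 60.2% of the chains of 5 or more, always more than 10 kb from each member.

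The longest chain was on chromosome 17, from 29287630 to 29469443, with 14 isolated peaks over 182 kb. Their scores ran from 44 to 109 with a median of 54, below the median of 68 for isolated peaks. It was not free of other calls, since 8 other ES peaks and 7 MEF peaks started within it. The chain came in small groups: 4 peaks started between 29358453 and 29370747, and 3 between 29435663 and 29440063, where the highest score of 109 was found. Its last pair started 326 bp apart and therefore overlapped.

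The chain on chromosome 4 from 153052031 to 153288138 was of another kind. Its 12 isolated peaks over 236 kb had no other ES peak and no MEF peak between them. The nearest MEF starts were 97.2 kb to the left and 18.3 kb to the right, and the most remote member, at 153134972 to 153135370, was 171 kb from a MEF start. Scores ran from 22 to 260 with a median of 59. The score of 260 belonged to the peak at 153202099 to 153202497, and the next highest in the chain was 113, at its left end. Neighbouring starts lay from 1445 bp to 44.4 kb apart, with a median of 15.9 kb.

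Another 5 chains had 11 peaks each. On chromosome 5 the chain from 135565588 to 135655871 was the shortest, 90.3 kb, with scores of 36 to 90, and 5 other ES peaks and 2 MEF peaks within it. Its 11 peaks include overlapping ones, which started at 135583242, 135583522 and 135583744. On chromosome 18 the chain from 76061070 to 76223012 spanned 162 kb with scores of 26 to 128, a single MEF peak and no other ES peak. On chromosome 17 a second chain, from 27349798 to 27530829, spanned 181 kb with scores of 17 to 239 and held no other peak of either list. On chromosome 8 the chain from 120181230 to 120367954 (187 kb, scores of 21 to 101) also held no other peak, and the chain from 12370003 to 12582355 (212 kb, scores of 27 to 96) held 5 other ES peaks and 2 MEF peaks. Of the 7 chains with 11 or more members, 3 were therefore free of any other call.

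**Figure D5:**
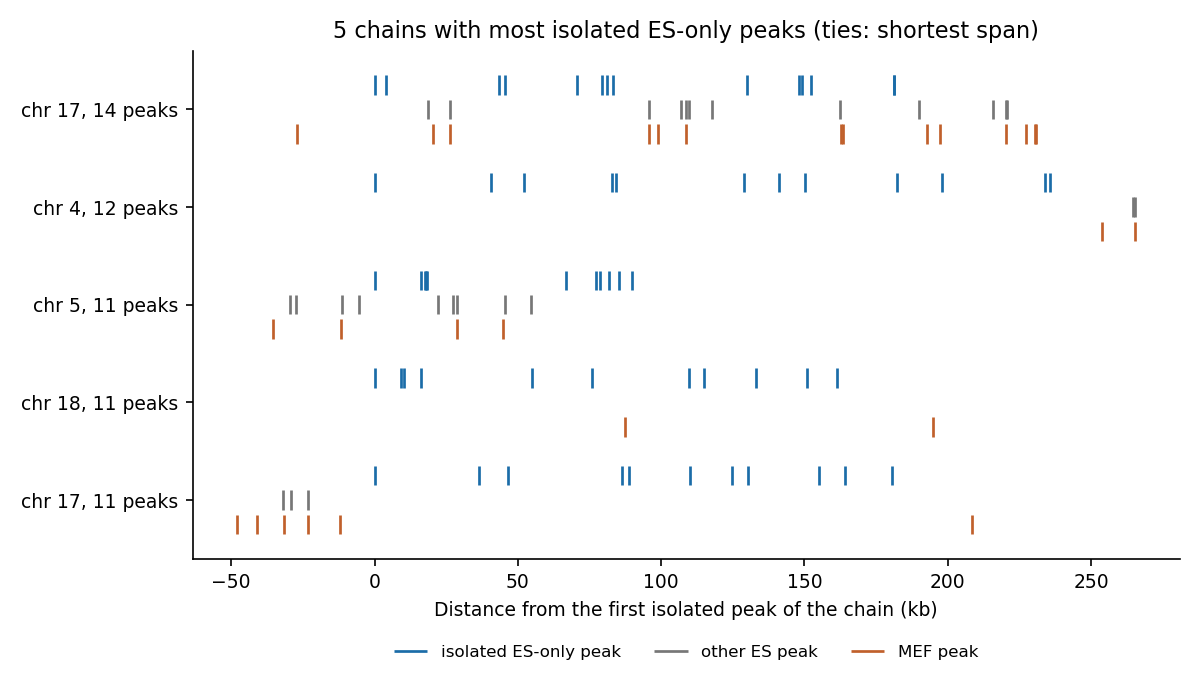
The 5 chains with most isolated ES-only peaks, where 5 chains tied at 11 peaks and the 3 with the shortest span are drawn; each tick is the start of a peak, placed by its distance in kb from the first isolated peak of its chain, and 50 kb on either side are drawn. The chromosome 4 chain (12 peaks) and the lower chromosome 17 chain (11 peaks) have no MEF peak (orange) and no other ES peak (grey) between their members, while the upper chromosome 17 chain (14 peaks) is interleaved with both.

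Runs with no other ES peak and no MEF peak between the members were also counted, whatever the spacing. There were 3931 such runs of 2 or more, holding 63.5% of the isolated peaks, and 274 of 5 or more. By number of members the chromosome 4 chain came first with 12, followed by the second chromosome 17 chain and the chromosome 8 chain from 120181230, with 11 each. The chromosome 8 run had a median score of 79. Among the runs of 10 peaks, the pair with the shortest span was on chromosome 1, from 182498276 to 182554434 and from 182743792 to 182831332, over 56.2 and 87.5 kb. Both fall in the chromosome 1 window named above, where they supply 20 of its 26 isolated peaks. The first of them had scores of 18 to 279 with a median of 83, and the second 19 to 117 with a median of 53.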

How the data were processed

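CTCF chromatin immunoprecipitation libraries of ES cells and MEFs were compared, 1 per cell type. The authors deposited 1 list of peaks per library with a whole-number score per peak, whose scale is not defined. The build is mm9, per the submitters' processing notes. For the aligner, peak caller, threshold and control, nothing is stated (not given in the sources used here). The depth is unknown. All peaks span 399 bp. Printed starts are the deposited starts plus 1.

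Distances were taken between starts, and peaks less than 399 bp apart counted as overlapping. Windows of 1 Mb hold a peak by its midpoint. Shares carry 95% Wilson intervals, densities exact Poisson intervals and medians binomial order-statistic intervals. Regions were named by rule: the 5 largest chains and 5 longest uninterrupted runs by members (ties by shorter span; 2 tied chains were added), 3 windows by number (a tie for the third added 1) and 3 by share, the 5 highest-scoring and 3 most remote peaks, and peaks at the limits. The members and lists were chosen with earlier results of these data known. The counting was tested on simulated data. Alternatives changed the distance, score limit, MEF list, merging, spacing and window size. Sequences, motifs and genes were not analysed here, since no mm9 genome or annotation was used. Scripts ran under Python 3.11.15 with pandas 2.3.3, numpy 2.4.6 and scipy 1.17.1, and figures were drawn with matplotlib 3.10.9.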

Additional observations from a re-analysis of the deposited data

Results flagged for a closer look

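Chromosome X lies outside the autosomal rule and is reported here because it carries signal of the same kind. Under the same distance and score limits, 475 of its 802 ES peaks were isolated from MEF peaks (59.2%, 95% Wilson interval 55.8 to 62.6), against 38.3% on the autosomes and 44.1% on the highest autosome. Their median score was 69. Another isolated peak within 50 kb was found for 34.95% of them (30.8 to 39.3), against 59.7% on the autosomes. Both values depend on how dense the peaks are, and X was not compared with autosomal regions of like density. On the autosomes the isolated share was 79.8% with fewer than 10 MEF peaks within 500 kb and 58.1% with 10 to 19. The 59.2% on X is therefore not read as particular to that chromosome.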

How the results depend on the processing

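In all, 35 alternatives were computed. The reported value's counting interval (for numbers of peaks, a factor of 1.5) contained 18 of them, and 17 lay outside. The 16673 isolated peaks (38.3%) were 10286 (23.6%) with a MEF distance over 20 kb and 8094 (36.6%) in the higher-scoring 50% of the ES list. Their share was 51.0% with a distance over 5 kb, 43.6% with the MEF list shortened to its 44424 highest-scoring peaks, as many as in the ES list, and 38.9% with overlapping ES peaks merged. The median score was 95 in the higher-scoring 50%, by its construction. The percentage with another isolated peak within 50 kb was 68.9% (5 kb), 51.1% (20 kb), 37.45% (higher-scoring 50%) and 64.3% (shortened MEF list), and it was 42.7% within 25 kb and 78.9% within 100 kb. The windows with most isolated peaks held 25.1% at 500 kb and 23.2% with the shortened MEF list. The largest chain had 30 peaks when gaps of 100 kb were allowed, on chromosome 17 from 29287630 to 30034814. With gaps of 25 kb the largest chain was another one, of 10 peaks, on chromosome 1 from 182498276 to 182554434. Including X was chosen after seeing the data. No paired analysis was possible because there is a single library of each kind. The part that sequencing depth plays in the isolated calls was not tested.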

Other observations

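Ranked by spacing instead of number, a measure chosen after the values were seen, the tightest chain of at least 8 isolated peaks was the one on chromosome 1 from 182498276 to 182554434, with 6.24 kb per step. Its first 3 peaks started at 182498276, 182498650 and 182499024, which are equal steps of 374 bp, shorter than the width of a peak, with scores of 83, 63 and 78. Chromosome 5 from 135565588 to 135655871 followed with 9.03 kb per step, and in it 3 peaks started between 135583242 and 135583744, the last 2 of them 222 bp apart. Overlapping peaks count as separate steps, which lowers the kb per step of both chains. Repeats at these positions were not examined.

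The scores of neighbouring isolated peaks were as different as those of distant ones. Over 409 pairs less than 1 kb apart, Spearman's rho of the scores was 0.03, and over 3895 pairs 10 to 50 kb apart it was 0.02. All pairs come from the same library and neighbouring pairs share a peak. The median absolute log2 ratio of the scores was 0.71 for the closest pairs and 0.73 for pairs more than 50 kb apart.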
